A study of Mus musculus with 8 samples.

Results

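Chromatin loops of an H3K27ac HiChIP map that join a pair of anchor regions, neither of which carries the start of a protein-coding gene, were followed across 4 mouse embryonic stem cell lines. Of the 415681 loops with a count in the study, 69620 (16.7%) were of this kind: their 2 ends were different anchors, the midpoints of the ends lay under 500 kb apart, and no annotated protein-coding transcription start of GENCODE M21 (GRCm38) fell within either end. The remaining loops under 500 kb comprised 77138 between a promoter anchor and a distal anchor and 33381 between 2 promoter anchors. A further 74804 distal pairs lay 500 kb or more apart. The choice used anchor positions and annotation only, and no count. Beside the limit, the 4718 distal loops of the last 50 kb inside it held a mean of 0.410 counts per library, and the 4402 of the next 50 kb held 0.363.

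H3K27ac is an acetylated histone residue found at active promoters and enhancers, and HiChIP couples precipitation of such chromatin with ligation of DNA ends that lie close in the nucleus. Each ligated read pair reports a contact between 2 places, at least 1 of which carried the mark. Enhancers act on promoters over distance, and several enhancers of a gene can gather in a cluster or super-enhancer, so contacts between distal elements are common around genes of cell identity. In stem cells such clusters are bound by OCT4 (Pou5f1), SOX2, NANOG and ESRRB, while CTCF and cohesin hold many longer loops.

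The lines were C57BL/6J (B6, line B6 5-1), DBA/2J (D2, line D2 5-5) and a reciprocal congenic pair that exchange a chromosome 13 interval. B6-13D2 (QJ 6-1) carries the D2 interval on the B6 background and is labelled B6.D2-(rs30079041-rs51756099)/Bakr. D2-13B6 (XE 2-4) carries the B6 interval on the D2 background and is labelled D2.B6-(rs29224292-rs13469455)/Bakr on its samples, although the series design names rs51756099 as its second marker. Positions of the markers were not given in the sources used here, so no loop was assigned to the interval by coordinate. All lines grew in serum with LIF, 1 µM PD0325901 (a MEK inhibitor) and 3 µM CHIR99021 (a GSK3 inhibitor). Each line is a single cell line with 2 libraries labelled technical replicates, so p-values measure only the spread between libraries of 1 line, and a strain difference cannot be told apart from a difference between lines.

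Library totals ran from 737955 to 952040 loop counts in B6 and D2 and from 982278 to 1425304 in the congenic lines. The distal loops under 500 kb held 106268 to 183535 counts per library. Of the 8 embryonic stem cell genes checked, from Pou5f1 and Nanog to Dppa5a, all 8 had their start in an anchor, with a summed level of 3376 to 4846 CPM, the count scaled to the effective library size. No start of the 5 trophoblast or 3 neural markers lay in an anchor, and of 6 markers each of primitive endoderm and fibroblasts, Pdgfra (4.65 to 12.4 CPM) and Col1a2 (17.1 to 35.3 CPM) alone did. Chromosome 11 took 11.6% and 11.8% of these loops' counts in the D2-13B6 libraries and 8.23% to 8.92% elsewhere. In bulk libraries of this kind, fewer cells with a contact and a weaker contact per cell cannot be told apart.

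Ends of some of the loops are shown first by the sequence of the GRCm38 reference, which is a C57BL/6J genome; the D2 alleles were not read. Of the 3996 distal anchors of tested loops that are a single 5-kb bin, 1.58% held the composite SOX2-OCT4 site (TTGT, any base, then ATGCAA) on either strand, 32.7% held the ESRRB site TNAAGGTCA and 4.35% held the CTCF core consensus. The same 5-kb measure over all 17955 single-bin anchors gave 1.31%, 26.2% and 3.31%, and over the 3944 promoter anchors 0.786%, 26.9% and 4.28%. Of the places with the SOX2-OCT4 letters in the ends searched, the 4 shown lie in the strongest loops near Tbx3 and Myc and in 2 of the strongest loops of 100 kb or more, in Ppp1r12a and Enah. Others lay in loops near Cdx2, Dnmt3a, Atf7ip and Socs3. Each line is read 5′ to 3′ on the strand of the match, with the match in capitals and 30 bases on each side.
Tbx3, chr5:119604338-119604408, minus strand: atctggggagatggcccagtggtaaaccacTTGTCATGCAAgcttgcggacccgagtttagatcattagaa
Myc, chr15:62085825-62085895, minus strand: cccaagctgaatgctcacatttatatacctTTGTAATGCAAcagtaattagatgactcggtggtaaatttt
Ppp1r12a, chr10:108269538-108269608, plus strand: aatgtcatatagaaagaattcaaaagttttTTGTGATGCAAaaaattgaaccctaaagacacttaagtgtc
Enah, chr1:181942278-181942348, plus strand: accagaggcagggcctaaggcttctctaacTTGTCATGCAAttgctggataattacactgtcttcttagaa

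The CTCF core consensus was searched for in the ends of the loops that differed most between lines. It is shown for the D2-high loops near Kctd15, Ust and Tmem130, the D2-low loops near Pde6h and Gpr20, and the loop between Gbp2 and Kyat3, which is low with the D2 interval. Capitals mark the 12 bases of the match, read on its own strand. The match near Ust lies in a soft-masked repeat of the reference. The D2-high loops near Thsd7a, in Immp2l and near Zfp951 had no match in either end, which says only that these letters are not in the reference there.
Kctd15, chr7:34540034-34540105, minus strand: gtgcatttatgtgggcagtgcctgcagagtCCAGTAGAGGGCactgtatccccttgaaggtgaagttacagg
Ust, chr10:8536806-8536877, plus strand: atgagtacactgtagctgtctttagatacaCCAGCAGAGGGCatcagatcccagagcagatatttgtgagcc
Tmem130, chr5:144662183-144662254, plus strand: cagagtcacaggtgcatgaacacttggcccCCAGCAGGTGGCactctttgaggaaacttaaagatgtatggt
Pde6h, chr6:136999881-136999952, minus strand: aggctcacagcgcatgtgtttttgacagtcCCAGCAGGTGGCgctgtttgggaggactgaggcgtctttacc
Gpr20, chr15:73680143-73680214, plus strand: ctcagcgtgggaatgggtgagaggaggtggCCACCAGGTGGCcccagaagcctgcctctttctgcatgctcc
Gbp2, chr3:142640238-142640309, plus strand: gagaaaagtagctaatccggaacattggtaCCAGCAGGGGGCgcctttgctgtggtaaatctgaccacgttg

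The loops were built from 19931 of the 20843 distal anchors, among 30044 anchors in all, of which 9201 (30.6%) held a protein-coding start. Of these distal anchors, 92.1% were also joined to a promoter anchor by some loop, 43.7% overlapped the body of a protein-coding gene and 2186 held a non-coding start. Their median distance to a protein-coding start was 41295 bp, and 66.0% were a single 5-kb bin. The loops spanned 10000 to 497500 bp between midpoints, with a median of 200000 bp. They were sparse, since 16307 (23.4%) rested on a single count over all 8 libraries.

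Counts fell steeply with span. The 3696 loops under 25 kb held a mean of 11.1 counts per library, the 5505 of 25 to 50 kb held 6.53, the 9374 of 50 to 100 kb held 2.75, the 23286 of 100 to 250 kb held 1.17 and the 27759 of 250 to 500 kb held 0.517. A loop was tested when at least 2 libraries held 5 or more counts. That left 9364 loops (13.5%, against 10.8% of all loops), or 72.3% of those under 25 kb but 1.96% of those of 250 kb or more. The tested loops held 70.6% to 76.4% of the counts of each library's distal loops, had a median span of 45 kb and a median level of 5.93 CPM.

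The strongest contacts joined wide anchors, and since counts grow with anchor width, their order is not one of contact per length. The highest mean level, 299 CPM, was that of chr1:86430001-86450000 with chr1:86455001-86515000, 45 kb apart between Tex44 and Ptma (prothymosin alpha, an abundant chromatin-associated protein). It was followed by loops within Msi2 (an RNA-binding protein of stem cells) at 267 CPM, between the non-coding genes Malat1 and Neat1 at 240 CPM, within Etl4 at 234 CPM, within Ror2 (a Wnt5a receptor) at 233 CPM and within Dst (dystonin, a cytoskeletal linker) at 229 CPM. A loop between Tyro3, a receptor tyrosine kinase, and Mga, a MAX partner that represses germ cell genes, held 218 CPM, and one in Pitpnc1 held 175 CPM. The Msi2 loop, on chromosome 11, held 358 and 385 CPM in D2-13B6 and 216 to 257 in the other 6 libraries. Over those 6 its mean was 232 CPM, below the 256 CPM of the Dst loop. Neighbours in this order from Malat1 to Dst differ by less than the SD between libraries of at least 1 line.

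Among loops of 100 kb or more, the strongest joined ends within Ppp1r12a, a myosin phosphatase subunit, and Pawr, a pro-apoptotic protein, over 142.5 kb. Its levels were 126 and 138 CPM for B6, 159 and 163 for D2, 131 and 112 for B6-13D2 and 135 and 159 for D2-13B6, with D2 and 1 D2-13B6 library highest and the other lines overlapping. Next came Rbfox2 to Apol7a over 147.5 kb (91.3 CPM), Etl4 over 102.5 kb (80.4), Enah to Srp9 over 137.5 kb (79.5) and the Mir290 cluster to Cacng7 over 150 kb (63.0). Mir290 encodes the most abundant microRNAs of mouse stem cells, and its loop held 57.7 to 74.6 CPM in the 8 libraries. None of these 5 long loops passed the test in any comparison.

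Most distal anchors had few tested partners. Of 8688 anchors in a tested loop, 48.4% had 1, 733 (8.44%) had 5 or more, and the most was 19. Among the busiest, the anchor chr6:72835001-72875000 in Kcmf1, a ubiquitin ligase gene, had 17 tested loops and a summed level of 792 to 934 CPM. Its sum did not pass the test for the genetic background (0.02 on the log2 scale, FDR 0.895). Anchors in Magi1, Etl4 and Tns3 had 15, 14 and 14 tested loops, and their sums differed by -0.37 (FDR 0.00058), 0.22 (FDR 0.015) and 0.23 (FDR 0.0129), where 24.8% of the 21211 tested anchor sums, and 26.2% of those of distal anchors, were called. That in Tns3 lies on chromosome 11.

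The comparison of D2 with B6 asks which contacts differ between the parental strains. At an edgeR FDR of 0.05, 315 of the 9364 tested distal loops differed (3.36%, where 2.65% of all 44706 tested loops of every kind did). Of these, 172 were higher in D2 (1.84% of the distal loops) and 143 lower (1.53%), where among the tested loops of every kind 1.38% were higher and 1.26% lower. The D2-high loops moved further, with a median log2 difference of 2.07 against -1.67 for the D2-low loops, and 51 of them but 15 of the D2-low loops differed by 3 or more. Over the called loops of every kind the medians were 1.58 and -1.40, with 111 higher and 48 lower by 3 or more. Among the distal calls, 42 higher and 23 lower loops had 3 or fewer counts in the low line. The largest of these differences thus rest on near-empty groups. Both anchor sums were called in the same direction for 225 of the 315 loops, 1 for 67 and none for 23. Of the 12781 tested distal anchors, 12.9% were called. The sums include the loop itself, so for these 315 calls a change of contact was not separated from one of signal at the ends. Without B6 replicate 1 the count was 122, without D2 replicate 1 it was 163 and without D2 replicate 2 it was 137.

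Averaging the same strain difference over both states of the interval uses all 8 libraries, so its calls are not independent of those between D2 and B6. This background effect was called for 1088 of 9364 loops (11.6%, and 8.85% of all loops), 479 higher (5.12%) and 609 lower (6.50%) with D2 background. Among loops of every kind 4.28% were higher and 4.57% lower. Chromosome 11 held 72 of the higher and 22 of the lower loops. In 370 of the higher and 438 of the lower calls, the libraries of the 2 backgrounds did not overlap. Over all tested distal loops, called or not, 6.07% lay apart as higher and 8.01% as lower. Loops named below for this effect were picked from the calls without overlap. Both anchor sums were called in the same direction for 808 of the 1088 loops, 1 for 231 and none for 49. Of tested distal anchors, 26.2% were called. The changes of 146 higher and 74 lower loops reached 2 on the log2 scale, and the medians were 1.52 and -1.09, against 1.08 and -0.99 over the called loops of every kind. Leaving out any 1 library gave 788 to 933 calls.

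The clearest case joined chr6:12865001-12870000 to chr6:12875001-12880000, in no gene body, 115.6 and 125.6 kb from Thsd7a, a thrombospondin-type protein of endothelium. It held 1 and 2 counts from B6, 189 and 211 from D2, 1 and 2 from B6-13D2 and 233 and 226 from D2-13B6. All 4 libraries of D2 background were far above all 4 of B6 background, whichever interval they carried. The background difference was 6.97 on the log2 scale (SE 0.25, FDR 3.36e-169).

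Other loops differed in the same manner. Within Immp2l, a mitochondrial inner membrane peptidase (nearest coding start Lrrn3), chr12:41375001-41380000 and chr12:41385001-41390000 held 6 and 8 counts from B6, 150 and 171 from D2, 11 and 4 from B6-13D2 and 220 and 179 from D2-13B6 (log2 4.53, SE 0.19, FDR 2.12e-118). Near Kctd15, an inhibitor of neural crest formation, chr7:34520001-34525000 and chr7:34530001-34550000 held 10 and 6, 143 and 125, 3 and 16, and 216 and 236 counts in that order of lines (log2 4.23, SE 0.19). Again no library of 1 background reached the range of the other.

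Near Ust, a sulfotransferase acting on chondroitin and dermatan sulfate, chr10:8535001-8545000 and chr10:8550001-8565000 held 5 and 8 counts from B6, 98 and 118 from D2, 3 and 3 from B6-13D2 and 193 and 200 from D2-13B6 (log2 4.93, SE 0.22). Near Tmem130, chr5:144660001-144670000 and chr5:144675001-144685000 held 3 and 9, 74 and 75, 4 and 4, and 124 and 117 (log2 4.16, SE 0.24). Of these 6 strongest loops, 5 spanned 10 to 17.5 kb and joined bins next to each other but for a single 5-kb gap. The exception spanned 130 kb, from chr5:104660001-104665000 to chr5:104785001-104800000, 28.957 kb from Zfp951, a zinc finger gene. It held no count in either B6 library, 69 and 75 in D2, 0 and 1 in B6-13D2 and 96 and 72 in D2-13B6. Against a floor of 3 counts over the B6 group it was at least 51.2-fold higher in D2, and its ratio between backgrounds was 289 (95% counting interval 51.5 to 11445).

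Other loops were lower in D2 background. Near Pde6h, which encodes the inhibitory subunit of the cone phosphodiesterase, chr6:136990001-137005000 and chr6:137010001-137020000 held 50 and 35 counts from B6, 6 and 5 from D2, 42 and 63 from B6-13D2 and 8 and 8 from D2-13B6 (log2 -2.88, SE 0.26, FDR 1.53e-26). Near 2010315B03Rik, chr9:124255001-124260000 and chr9:124270001-124285000 held 26 and 25, 1 and 0, 26 and 35, and 4 and 2 (log2 -4.43, SE 0.42). The 4 libraries of D2 background lay below the other 4 in both loops.

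Within Dst, 1 of the 8 strongest loops of all, chr1:34035001-34080000 and chr1:34085001-34125000, held 276 and 267 CPM for B6, 150 and 175 for D2, 359 and 311 for B6-13D2 and 155 and 140 for D2-13B6. It was thus lower with D2 background in every library (log2 -0.96, SE 0.10, FDR 1.56e-19). Loops in Tbcel, a tubulin cofactor-like gene (-1.66), in Pknox2, a TALE homeobox gene (-1.68), and between Slc45a4 and Gpr20 (-1.59) were lower by more. All 12 loops named here for the background effect, and all 12 ranked highest for D2 against B6, were called without each library in turn.

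**Figure D1:**
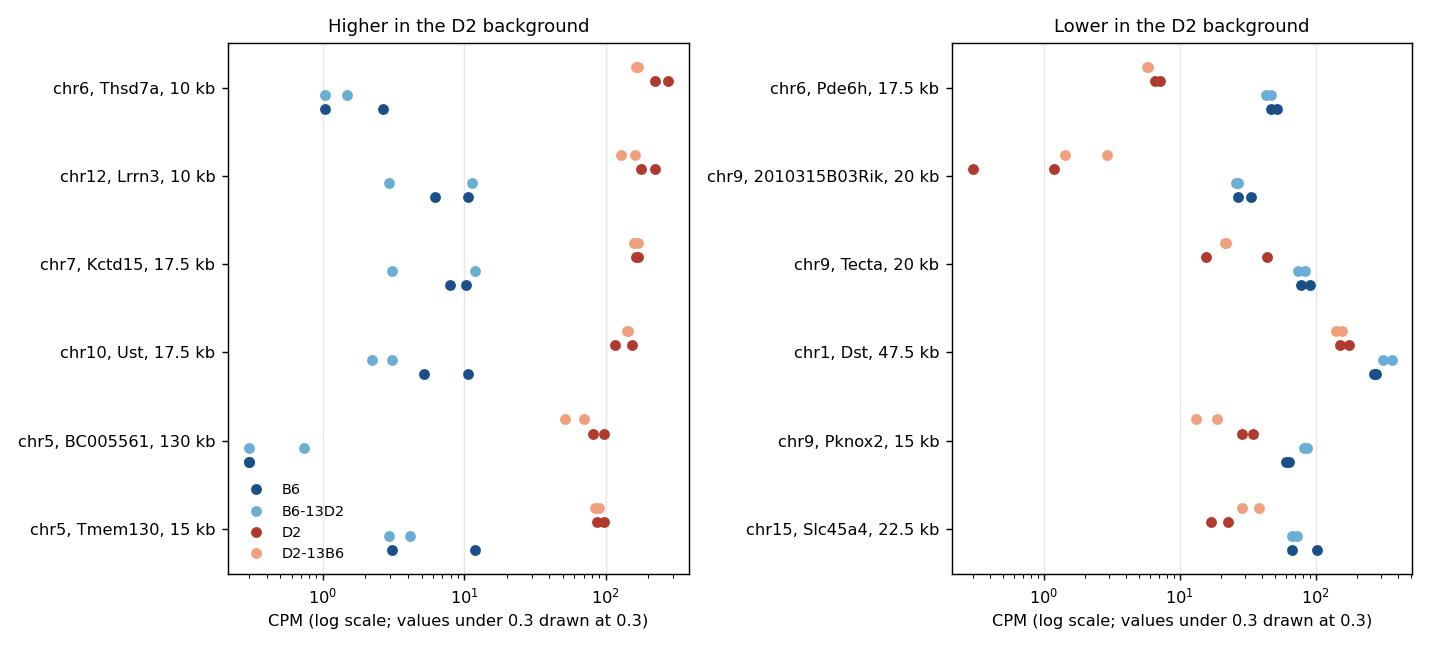
CPM (log scale) of the 6 loops most clearly higher (left) and the 6 most clearly lower (right) in D2 background, 1 point per library and 1 colour per line. Each loop is named by chromosome, nearest protein-coding start and span, and values under 0.3 are drawn at 0.3. The D2 and D2-13B6 points stand together and apart from the B6 and B6-13D2 points in all 12 loops. This was set by the rule, which picked only calls whose groups do not overlap.

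The share of loops that differed was lower where the gap between the ends was wider. With a gap of up to 5 kb between the anchors, 23.4% of 1618 tested loops were called for the background effect. The share was 15.0% at 5 to 10 kb, 12% at 10 to 20 kb, 8.24% at 20 to 50 kb, 8.25% at 50 to 100 kb and 6.37% of 2025 loops at 100 to 500 kb. Levels fell over the same classes, from a median of 14.7 CPM to 4.20 CPM. Between D2 and B6 the shares went from 8.10% to 1.43%. By span between midpoints, the share for the background was 6.75% at 100 to 250 kb and 7.55% of 543 loops at 250 to 500 kb, and between D2 and B6 it was 1.49% and 1.66%, so it was not lower in the longest class.

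At a given level, distal loops were called more often than loops with a promoter. Among loops of 20 CPM or more the background effect was called for 33.5% of distal loops, 22.0% of promoter-to-distal loops and 14.2% of promoter-to-promoter loops. Under 5 CPM the shares were 3.87%, 2.00% and 1.30%. Over all levels they were 11.6%, 7.65% and 5.05%, and reads inside 1 anchor gave 20.2%. Within the 20 CPM class, 35.8% of distal loops with a 5-kb gap, 33.7% of those with up to 20 kb and 28.1% of those with more were called, and at 10 to 20 CPM the shares were 18.7%, 20.5% and 15.96%. Between D2 and B6 they were 11.4%, 11.8% and 10.9% at 20 CPM or more, so at that level the share did not follow the gap. At lower levels it was highest with the 5-kb gap. For the background the shares were 10.3%, 4.54% and 3.39% under 5 CPM, and 16.3%, 8.97% and 8.65% at 5 to 10 CPM. Between D2 and B6 they were 5.16%, 0.732% and 0.365%, and 5.37%, 1.77% and 1.81%. These shares are descriptions of loops that share anchors, and the differences between classes were not tested.

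**Figure D2:**
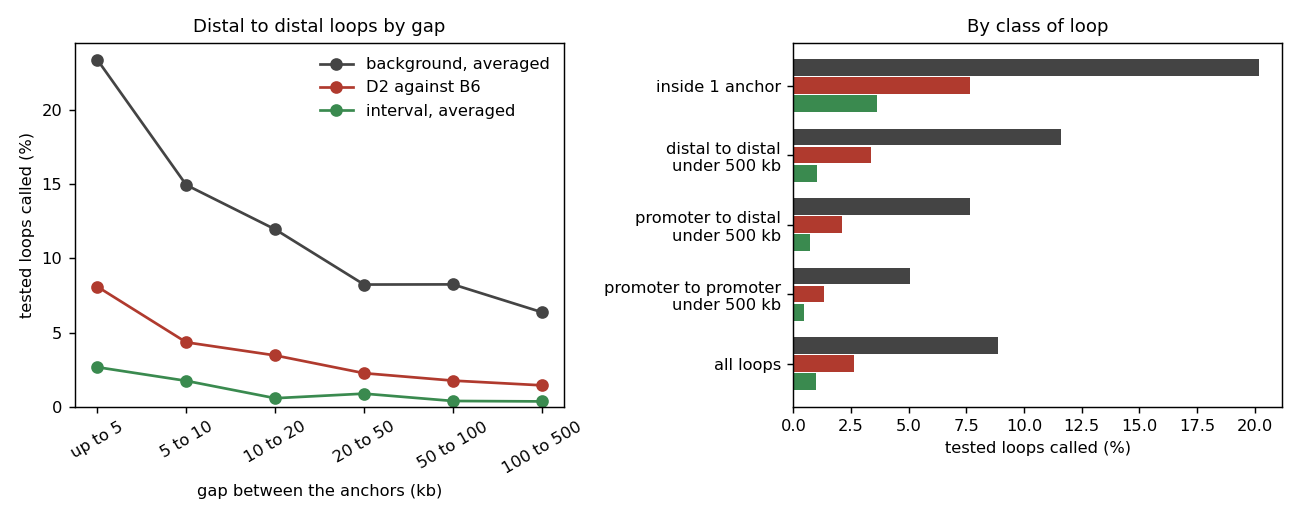
Percent of tested loops called at an FDR of 0.05 for the averaged background effect, D2 against B6 and the averaged interval effect, against the gap between the anchors in kb (left) and by class of loop (right). The background share of distal loops falls from 23.4% at gaps up to 5 kb to 6.37% at 100 to 500 kb, and by class it is 11.6% for distal loops and 5.05% between promoters.

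The congenic lines repeat the strain comparison in libraries that do not enter the D2 and B6 means. They are not independent of the calls, since all 8 libraries set the shared dispersion, the scaling and the filter. Of the 315 loops called between D2 and B6, 284 (90.2%) had the same sign in D2-13B6 over B6-13D2, in which the interval alleles are exchanged. The figure was 156 of the 172 higher and 128 of the 143 lower loops. Over all 9364 tested loops, 61.3% had the same sign. The loop near Gpr141 and Elmo1, chr13:19950001-19955000 with chr13:19960001-19970000, held 11 and 12 counts from B6, 142 and 153 from D2, 23 and 23 from B6-13D2 and 109 and 126 from D2-13B6 (D2 over B6 log2 3.76, SE 0.25). Its D2-13B6 level, 85.1 ± 7.92 CPM (SD, n = 2), lay below the 183 ± 22.6 CPM of D2.

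**Figure D3:**
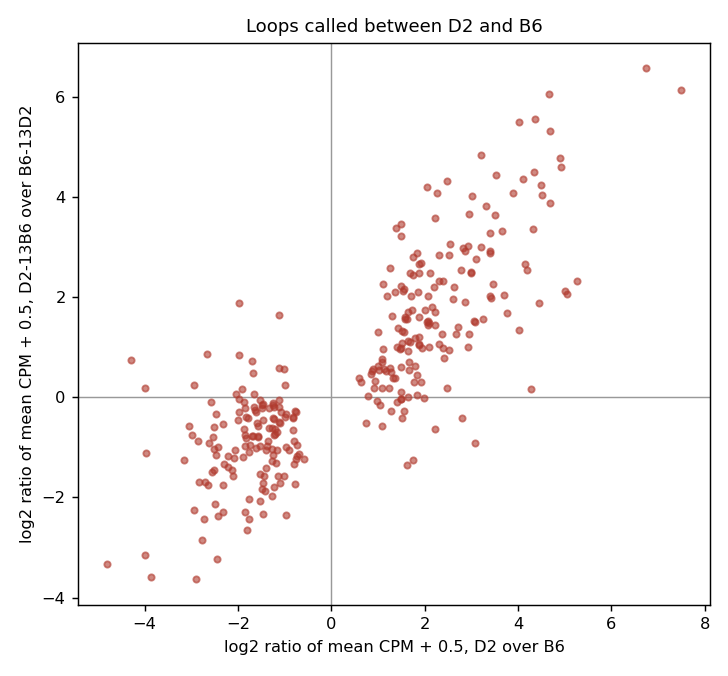
Log2 ratio of mean CPM plus 0.5 in D2-13B6 over B6-13D2 (vertical) against that in D2 over B6 (horizontal), 1 point for each of the 315 loops called between D2 and B6. The points of 284 loops lie in the quadrants where both ratios have the same sign.

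Loops around genes of cell identity were taken by 5 gene lists, counting a loop where both ends lay within 250 kb of a start of the gene. Around 20 naive pluripotency genes, 280 loops lay near and 74 were tested, and 3 were called for the background effect, all higher in D2 background (4.05%). The median background difference of the 74 was 0.11, where that of all tested distal loops was -0.06. Of the 44 tested loops around 11 formative and primed genes, 1 was higher and 4 were lower (11.4%, median -0.27). Of the 87 around 19 signalling genes, 1 was higher and 7 were lower (9.20%, median -0.21). The lists of differentiated lineages (0 higher and 1 lower of 40, median 0.04) and of heterochromatin and zinc finger corepressor genes (0 and 2 of 37, median -0.20) had few calls. None of the 5 shares was above the 11.6% of all tested distal loops.

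Downstream of Sox2, the pluripotency factor whose stem cell expression depends on a distal control region, 1 loop joined chr3:34695001-34715000 and chr3:34730001-34775000, 44.6 and 79.6 kb from the gene's start. It held 63.8 and 61.1 CPM for B6, 117 and 112 for D2, 97.8 and 95.3 for B6-13D2 and 125 and 152 for D2-13B6. B6 lay lowest and every library of D2 background lay above every library of B6 background. The background difference was 0.70 (SE 0.13, FDR 3.18e-06) and was called without each library, while that of D2 over B6 was 0.87 (SE 0.20, FDR 0.00149) and had an FDR of 0.0515 without D2 replicate 1.

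From an anchor in Klf5, a naive-state transcription factor, 2 loops were also higher. The longer, chr14:99310001-99370000 to chr14:99505001-99520000 over 172.5 kb, held 19 and 18 counts from B6, 33 and 42 from D2, 36 and 40 from B6-13D2 and 54 and 50 from D2-13B6 (background 0.66, SE 0.19, FDR 0.0127). Its FDR was 0.121 without B6 replicate 1, 0.143 without D2 replicate 2, 0.0797 without B6-13D2 replicate 2 and 0.0532 without D2-13B6 replicate 1. The shorter, to chr14:99385001-99390000, held 11 and 15, 33 and 17, 22 and 16, and 39 and 39 (0.90, SE 0.23, FDR 0.00263), and its FDR was 0.0925 without B6 replicate 1, 0.164 without D2 replicate 1 and 0.0812 without B6-13D2 replicate 2. Depth is higher in the congenic libraries, so these counts are to be read with the fitted difference.

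The strongest loops near the other naive factors did not pass in the background test. That of Klf4 held 38.5 to 67.0 CPM (background 0.30, FDR 0.289), that of Tbx3 78.3 to 102 CPM (0.02, FDR 0.946), that of Prdm14 79.5 to 143 CPM (-0.33, FDR 0.071) and that between Dppa3 and Nanog 11.7 to 32.6 CPM (0.29, FDR 0.549). The nearest to Pou5f1 held at most 7 counts. Near Klf4, a loop at Rad23b, a DNA repair gene, held 37 and 26 counts from B6, 12 and 12 from D2, 16 and 17 from B6-13D2 and 21 and 16 from D2-13B6. It was lower in D2 (-1.29, FDR 0.0125) and in B6-13D2 (-1.35, FDR 0.00712) than in B6, and neither call held without B6 replicate 1 (FDR 0.168 and 0.197). The first was also lost without D2 replicate 1 (0.163) or 2 (0.107), and the second without B6-13D2 replicate 2 (0.223).

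**Figure D4:**
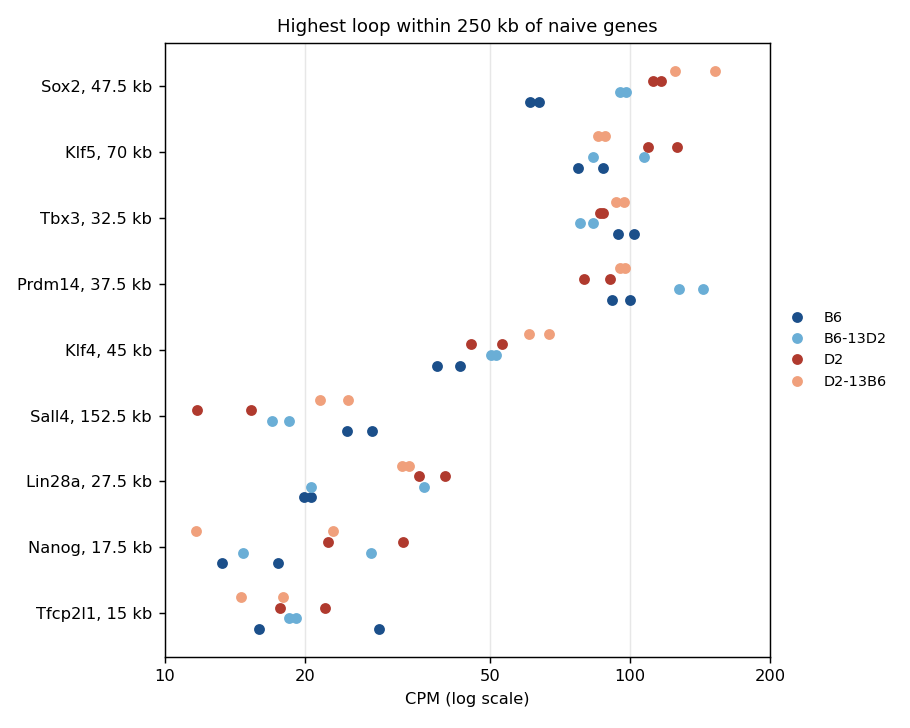
CPM (log scale) of the strongest distal loop within 250 kb of 9 naive pluripotency genes, 1 point per library and 1 colour per line, named by gene and span. The Sox2 loop runs from 61.1 CPM in B6 to 152 CPM in D2-13B6, with the 2 backgrounds apart, while the points of the Tbx3 and Klf4 loops lie closer together.

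Among formative genes, a loop 81.3 and 11.3 kb from Foxd3, a factor of the exit from the naive state, held 2 and 6 counts from B6, 14 and 16 from D2, 7 and 10 from B6-13D2 and 15 and 17 from D2-13B6. It was higher in D2 background (1.32, SE 0.34, FDR 0.0029), but not without B6 replicate 1 (FDR 0.122). The loops lower in D2 background lay in neighbouring genes: in Hadh, a fatty acid oxidation enzyme near Lef1 (-1.66, FDR 8.84e-06), in Clybl near Zic2 (-0.77, FDR 0.000662), in Dtnb near Dnmt3a (-0.97, FDR 0.0456) and between Nol4l and Commd7 near Dnmt3b (-0.71, FDR 0.0245). Those in Hadh and Clybl were called without each library.

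Of the 24 tested loops around Smad7, an inhibitory SMAD of TGF-beta signalling, 5 were lower in D2 background. Over all tested distal loops 6.50% were. The loop between Dym and Smad7 held 25.7 and 35.9 CPM for B6, 10.6 and 14.3 for D2, 15.4 and 27.3 for B6-13D2 and 12.4 and 7.92 for D2-13B6 (-1.20, SE 0.26, FDR 0.00012). The backgrounds lay apart by little, at 15.4 CPM against 14.3, and the call held without each library. The calls of the other Smad7 loops did not, and the value of a 70-kb loop ran from -1.93 to -0.39 over the settings. A 235-kb loop from the same end differed by -1.36 (FDR 0.000636, and 0.0523 without B6 replicate 1), and these 5 loops share ends. Loops near Nodal (-0.89) and Id1 (-0.57) were also lower and 1 near Socs3, the feedback inhibitor of LIF signalling, was higher (1.05, FDR 0.0448). The strongest loop near Myc held 45.2 to 70.4 CPM (background 0.30, FDR 0.252). The Socs3 loop lies on chromosome 11 and had an FDR of 0.184 with a scaling factor per chromosome, and its call was lost without 6 of the 8 libraries in turn. Of the 19 list loops called for the background, 4 were called without each library, and of the 7 called between D2 and B6 none was.

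Placing the D2 interval on the B6 background asks what the interval changes by itself. Between B6-13D2 and B6, 74 of 9364 loops differed (0.790%, and 0.879% of all loops), 31 higher (0.331%) and 43 lower (0.459%), where 0.561% of loops of every kind were higher and 0.318% lower. With library totals in place of TMM factors the split was 19 higher and 44 lower. The count was 18 without B6 replicate 1, 37 without B6 replicate 2, 22 without B6-13D2 replicate 1 and 35 without B6-13D2 replicate 2. The loop between Eps8, an actin regulator, and Strap, a kinase receptor-associated protein, held 48.4 and 42.5 CPM for B6, 46.0 and 48.2 for D2, 135 and 97.5 for B6-13D2 and 46.0 and 48.3 for D2-13B6. Only B6-13D2 stood apart (over B6 1.32, SE 0.20, FDR 3.45e-07). Loops in Cwf19l2 (1.59) and in Dnah12, a dynein heavy chain gene (1.25), were also higher, and the first had an FDR of 0.161 without B6 replicate 1.

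Of the 232 tested distal loops on chromosome 19, 8 were called (3.45%, where 1.70% of the 1409 loops of every kind there were), all lower and all between 36.94 and 37.35 Mb, from Btaf1, which removes TBP from DNA, past March5, a mitochondrial ubiquitin ligase, to Ide, the insulin-degrading enzyme. Within Ide, chr19:37320001-37330000 and chr19:37335001-37350000 held 147 and 142 CPM for B6, 51.9 and 41.7 for D2, 51.5 and 55.4 for B6-13D2 and 46.0 and 41.1 for D2-13B6. B6 alone was high, and D2 overlapped both congenic lines, which did not overlap each other. B6-13D2 was below B6 by 1.43 on the log2 scale (SE 0.18, FDR 5.81e-11) and D2 below B6 by 1.62 (SE 0.20, FDR 1.82e-12).

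The longest of these, from Btaf1 to Ide over 390 kb, held 31 and 24 counts from B6, 8 and 1 from D2, 3 and 11 from B6-13D2 and 3 and 9 from D2-13B6 (-2.39, SE 0.39, FDR 3.31e-06). Between March5 and Ide, chr19:37265001-37270000 and chr19:37335001-37350000 held 15 and 10, 2 and 1, 0 and 1, and 1 and 2 counts, a ratio of B6 to B6-13D2 of 33.7 (95% counting interval 5.52 to 1384). These loops share ends and are not independent. Of the 8, 3 were called without each library. In 4 others, the one above between March5 and Ide among them, leaving out either B6 library put the loop below the filter, so these were not tested without B6 replicate 1 or 2. The 300-kb loop had an FDR of 0.359 without B6-13D2 replicate 1, the 315-kb loop 0.0713 and 0.134 without B6-13D2 replicate 1 and 2, and a 30-kb loop in Ide 0.338 without B6 replicate 2 and 0.272 without B6-13D2 replicate 2.

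The reciprocal comparison, D2 against D2-13B6, called 56 loops (0.598%, and 0.91% of all loops), 30 higher in D2 (0.320%) and 26 lower (0.278%), where 0.188% of loops of every kind were higher and 0.722% lower. All 17 calls on chromosome 11 (2.06% of 826 tested distal loops there) were lower in D2, as were all 182 of loops of every kind (3.77% of 4822). This is the chromosome whose share of counts was high in D2-13B6, and the median difference of the distal loops was -0.38 on it against 0.09 elsewhere. The 17 distal calls included loops in Msi2, Pitpnc1, Tex14 and Vmp1. Elsewhere 30 distal loops were higher and 9 lower, while over loops of every kind 84 were higher and 141 lower there. A scaling factor per chromosome gave 27 calls, 25 of them among the 56. The count was 13 without D2 replicate 1, 19 without D2 replicate 2, 17 without D2-13B6 replicate 1 and 19 without D2-13B6 replicate 2.

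Off chromosome 11, the loop between Slc30a1, a zinc exporter, and Rd3, a photoreceptor protein, held 11.3 and 12 CPM for B6, 131 and 126 for D2, 11.3 and 17.7 for B6-13D2 and 65.7 and 52.6 for D2-13B6. D2-13B6 lay between D2 and the B6-background lines (D2 over D2-13B6 1.12, SE 0.18, FDR 8.83e-07). A loop in Nrcam, a neural adhesion gene, held 4 and 0 counts, 52 and 69, 0 and 2, and 44 and 48 (1.17, SE 0.22, FDR 0.000116, and 0.215 without D2 replicate 2). Both were among the loops high in D2 background. Of the 12 loops named for this comparison, 3 were called without each library.

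The sign of each congenic call was also read in the other congenic comparison. Of the 74 called between B6-13D2 and B6, 52 (70.3%) had the same sign in D2 over D2-13B6, where 51.8% of all tested loops had; off chromosomes 11 and 13 it was 46 of 66 (69.7%). Of the 56 called between D2 and D2-13B6, 31 (55.4%) had the same sign in B6-13D2 over B6, and 19 of 34 (55.9%) off chromosomes 11 and 13. These pairs of comparisons share no library.

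Averaged over the backgrounds, the D2 interval allele was associated with 96 called loops (1.03%, and 0.989% of all loops), 44 higher (0.470%) and 52 lower (0.555%), 11 of the lower on chromosome 11. Of loops of every kind, 0.445% were higher and 0.544% lower. With a scaling factor per chromosome the distal split was 27 higher and 42 lower. The count was 29 without B6 replicate 1, 46 without D2 replicate 1, 36 without D2 replicate 2, 50 without B6-13D2 replicate 1, and 51 and 47 without D2-13B6 replicate 1 and 2. Median sizes were 0.81 higher and -0.98 lower. In 18 of the higher and 31 of the lower calls, the libraries of the 2 interval alleles did not overlap. Over all tested distal loops, called or not, 1.73% lay apart as higher and 1.93% as lower. The loops named next for this effect were picked from the calls without overlap.

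Between Ap1ar, an adaptor-complex regulator, and Fam241a, chr3:127845001-127860000 and chr3:127865001-127870000 held 35.0 and 30.6 CPM for B6, 15.3 and 14.3 for D2, 10.3 and 9.60 for B6-13D2 and 38.7 and 25.9 for D2-13B6. The 4 libraries with the D2 interval lay below the 4 with the B6 interval (-1.42, SE 0.24, FDR 6.45e-06). Between Gbp2, an interferon-induced GTPase, and Kyat3, a kynurenine aminotransferase, chr3:142640001-142655000 and chr3:142685001-142695000 held 20 and 24 counts from B6, 4 and 6 from D2, 2 and 5 from B6-13D2 and 15 and 18 from D2-13B6 (-1.99, SE 0.35, FDR 1.65e-05).

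In Tmtc1, an O-mannosyltransferase gene, a loop held 25 and 18, 10 and 7, 6 and 3, and 32 and 20 counts (-1.74, SE 0.31, FDR 1.65e-05). Between Os9, a lectin of protein quality control, and B4galnt1, a ganglioside synthase, chr10:127125001-127135000 and chr10:127145001-127155000 held 20.6 and 12 CPM for B6, 28.3 and 32.6 for D2, 31.9 and 41.4 for B6-13D2 and 12.4 and 16.6 for D2-13B6, higher with the D2 interval (1.10, SE 0.23, FDR 0.000657). These 4 loops, 1 at Exoc4 and Lrguk (-1.34, FDR 0.0019) and 1 in Boll, a germ cell RNA-binding gene (-2.93, FDR 0.00226), were called without each library. The value for Boll, whose 4 libraries with the D2 interval held 0 to 3 counts, went from -4.67 without B6-13D2 replicate 2 to -2.52 without D2 replicate 2. The other 6 of the 12 named were not. The loop near Ptprk, a receptor phosphatase (0.59, FDR 0.000628), had an FDR of 0.0692 without D2 replicate 2, and that in Mypn (-0.66, FDR 0.0017) had 0.0581.

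**Figure D5:**
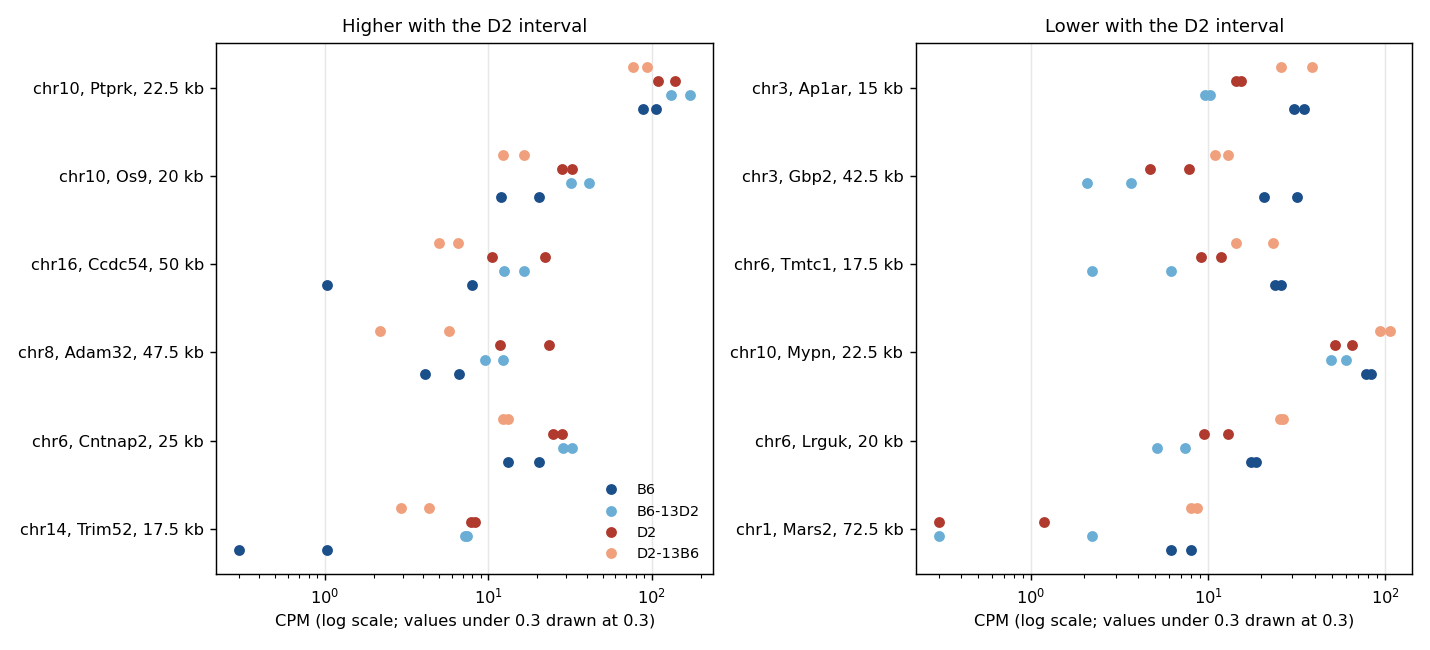
CPM (log scale) of the 6 loops most clearly higher (left) and the 6 most clearly lower (right) with the D2 interval, 1 point per library and 1 colour per line. Each loop is named by chromosome, nearest protein-coding start and span, and values under 0.3 are drawn at 0.3. D2 and B6-13D2, which carry the D2 interval, stand on 1 side of B6 and D2-13B6 in all 12 loops. This was set by the rule, which picked only calls whose groups do not overlap.

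On chromosome 13 itself 12 of 387 tested loops (3.10%, against 1.03% over all chromosomes) were called for the interval, 6 higher and 6 lower. Of the 1453 tested loops of every kind there, 57 (3.92%) were called. With a scaling factor per chromosome, 5 of the 6 higher calls were lost (FDR 0.0649 to 0.228) and none of the lower. Of the lower loops, 3 join 3 anchors around Hsd17b3, a steroid dehydrogenase of testosterone synthesis, at chr13:63965001-64085000. The shortest, chr13:64030001-64050000 and chr13:64075001-64085000, held 17 and 13 counts from B6, 4 and 5 from D2, 2 and 5 from B6-13D2 and 10 and 13 from D2-13B6 (-1.53, SE 0.39, FDR 0.0141). A 222.5-kb loop between the zinc finger genes Zfp748 and Zfp273, chr13:67570001-67580000 and chr13:67790001-67805000, held 9 and 7 counts from B6, 0 and 0 from D2, 3 and 4 from B6-13D2 and 7 and 8 from D2-13B6 (FDR 0.00565). B6-13D2 was below B6 by a fitted difference of -1.59, and with no count in D2 no averaged size is given.

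A loop 290.1 and 310.1 kb from Med10, a Mediator subunit gene, held 20 and 23, 6 and 4, 5 and 5, and 11 and 12 counts (-1.46, SE 0.35, FDR 0.00848). In 2010111I01Rik a loop held 54 and 46, 45 and 46, 58 and 125, and 40 and 38 counts and was higher (0.71, SE 0.16, FDR 0.00338). In the 3 lower loops given by library, the D2-interval libraries lay below the others. Yet 0 of the 12 calls on chromosome 13 held without each library in turn. The Zfp748 loop had an FDR of 0.0704 and 0.0698 without D2 replicate 1 and 2, and that at Med10 had 0.0783 without D2 replicate 2, 0.072 without B6-13D2 replicate 2 and 0.0553 without D2-13B6 replicate 2. The 40-kb Hsd17b3 loop had 0.0772 without B6 replicate 1, 0.0929 without D2 replicate 1, 0.0928 without B6-13D2 replicate 1 and 0.109 without D2-13B6 replicate 2. That in 2010111I01Rik had 0.0698 without D2 replicate 2, 0.187 without B6-13D2 replicate 2 and 0.0505 without D2-13B6 replicate 2.

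The interaction term sets the 2 parental lines against the 2 congenic lines, whose library totals also did not overlap. An interval difference that depends on background therefore cannot be told apart from a difference between those pairs or from depth. The term was called for 12 loops (0.128%, and 0.602% of all loops). In D2 background 4 were more positive (0.0427%) and 8 more negative (0.0854%), 3 of the latter on chromosome 11. Of loops of every kind, 0.0537% were more positive and 0.548% more negative. With at least 10 counts in 2 libraries the split was 14 more positive and 8 more negative. The Tyro3 to Mga loop held 171 and 129 CPM for B6, 184 and 179 for D2, 268 and 287 for B6-13D2 and 265 and 260 for D2-13B6. The 2 parental lines were low and the 2 congenic lines high (interaction -1.41, SE 0.20, FDR 1.05e-08). It was among the 2 of 12 interaction calls that held without each library, and the count was 3 without D2 replicate 1. The Ide loop, high in B6 alone, had an interaction of 1.54 (SE 0.30, FDR 0.000296, and 0.106 without D2 replicate 1).

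As a whole the class took a share of 14.6% ± 0.42 of all counts from B6, 14.1% ± 0.32 from D2, 13.6% ± 0.50 from B6-13D2 and 13.0% ± 0.11 from D2-13B6 (SD, n = 2 each). Loops of 100 kb or more took 30.2% ± 1.42 of the class in B6 and 27.4% ± 0.71 in B6-13D2, the highest and lowest of the 4 lines. In exact 2-sided permutation tests of 4 libraries against 4, which cannot go below p = 0.0286, the class share differed by -0.61 percentage points between backgrounds (p = 0.2) and by 0.065 between intervals (p = 0.914). Adjusted over the 6 tests of this kind, every p was 0.914. Each side holds 2 lines with 2 technical replicates each, so these p-values treat libraries of 1 line as independent. The background difference was -0.349 without B6 replicate 2, and -0.92 (p = 0.0857 in the same exact test) with loops inside 1 anchor left out of the total.

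Called loop ends were also compared by sequence, as a description with no test. The 253 single-bin anchors of loops higher in D2 background had a median GC content of 42.7% and 34.6% soft-masked bases, and the 315 of lower loops 44.8% and 26.9%, where all 3996 tested ones had 44.1% and 27.7%. Their CTCF consensus shares were 4.74% and 4.44%, against 4.35%. Promoter anchors of the same width had 47.3% GC and 23.0 CpG per kb against 10.0 for tested distal anchors. Of the 50 tested loops of 100 kb or more with the CTCF letters on 1 strand only at each end, 16 had them facing each other, 7 facing away and 27 on the same strand. Of the 109 such tested loops of any span the numbers were 32, 24 and 53, and of all 348 such distal loops they were 80, 96 and 172.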

How the data were processed

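H3K27ac HiChIP loop counts of 8 libraries were used, 2 technical replicates of each of 4 mouse stem cell lines. The authors deposited whole-number counts per loop, not normalized, in 1 table of all libraries. Per the submitters' processing notes BWA 0.7.18, SAMtools 1.19.2 and edgeR 3.34.1 were used with mm10; the loop caller and the merging of 5-kb bins into anchors are not given in the sources used here. No anchor ran past the end of any of 21 GRCm38.p6 chromosomes. Counts per library limit precision, and counting intervals and floors cover counting error only, since read pairs are not known to be independent molecules.

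All 44706 loops of any class that held 5 or more counts in 2 or more libraries were fitted in edgeR 4.0.16 (R 4.3.3; quasi-likelihood, TMM, 1 mean per line), with Benjamini-Hochberg adjustment over all of them and an FDR threshold of 0.05. Differences are log2, D2 minus B6 by line, background or interval allele; SE is the difference over the root of F. CPM used the TMM factors. Loops were named by rule: per comparison, the 6 higher and 6 lower calls of smallest FDR with non-overlapping groups, 1 Mb apart and off chromosome 11 where D2-13B6 entered. The strongest loop overall and per listed gene, the busiest anchors and all chromosome 13 interval calls were added. Some loops that these rules name are not reported here. The members and gene lists were chosen with earlier results of these data known. Replicate libraries of a line differed by slightly more than counting noise (chi-square per degree of freedom 1.04 to 1.15), so none was merged. Replicate numbers did not pair libraries across lines (correlation of deviations -0.05 to 0.0043). On simulated counts the procedure was tested with a seeded set of changed loops. DESeq2 1.42.0, other scalings, filters, thresholds and definitions of distal, the replicate block and leaving out each library were alternatives.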

Additional observations from a re-analysis of the deposited data

Results flagged for a closer look

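For 12 loops the interaction term in edgeR, a test of whether the interval difference itself differs between the B6 and D2 backgrounds, was called. On the log2 scale, D2 background minus B6 background, 11 of these values were -1.41 between Tyro3 and Mga, 1.54 in Ide, -1.83 in Cwf19l2, -2.77 near Arid1a, 2.67 near Lin7c, -1.32 between Eps8 and Strap, -0.96 near Epb41l4a, -2.16 in Cuedc1, -2.07 between Fabp6 and Pwwp2a, -1.54 in Gpatch8 and 3.01 near B3galnt1. The loops in Cuedc1 and Gpatch8 and that between Fabp6 and Pwwp2a lie on chromosome 11, whose share of counts was high in D2-13B6. With a scaling factor per chromosome their FDRs were 0.177, 0.34 and 0.189, so none of the 3 was called. The Lin7c loop held 18.6 ± 0.0472 CPM for B6, 18.5 ± 2.19 for D2, 7.30 ± 0.124 for B6-13D2 and 7.27 ± 4.17 for D2-13B6 (SD, n = 2 each), so both congenic lines lay below both parents. The B3galnt1 loop held 9.07, 24.6, 1.40 and 19.2 CPM in the same order. The call in Ide had an FDR of 0.106 without D2 replicate 1 and that near Lin7c 0.1 without the same library and 0.12 without D2-13B6 replicate 2. That near B3galnt1 had 0.408 without B6 replicate 2 and 0.396 without B6-13D2 replicate 2, and was lost without 4 other libraries. Of the 12 calls, 2 were called without each library. The interaction term also sets the 2 parental lines against the 2 congenic lines. Library totals of these pairs did not overlap (737955 to 952040 and 982278 to 1425304). An interval effect that differs by background therefore cannot be told apart from a difference between the pairs of lines or from depth. In the groups of 4 libraries compared by interval or background, no share or ratio of the class had a library past Dixon's critical value for 4, and single lines of 2 libraries could not be tested.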

How the results depend on the processing

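Counts of called loops depended on the tool, on dropping the filter and on the threshold more than on the scaling. Leaving out 1 library moved several of these counts further than the threshold did. DESeq2 called 67 loops between D2 and B6, 3 for B6-13D2 against B6, 8 for D2 against D2-13B6, 9 for the interval, 303 for the background and 4 for the interaction, with 5578 to 9213 of the 9364 loops left without an adjusted p. Without a filter on low counts, over all 69620 loops, the first 5 counts were 124, 26, 18, 13 and 522, and at an FDR of 0.01 they were 171, 25, 21, 36 and 654. With 10 counts in 2 libraries the interaction gave 22, 14 of them higher. Ends free of the start of any annotated gene gave 43 for B6-13D2 against B6, 36 for D2 against D2-13B6, 61 for the interval and 6 for the interaction. For D2 against D2-13B6 a factor per chromosome gave 27 and leaving out chromosome 11 gave 30. Leaving out 1 library gave 122 to 327, 18 to 68, 13 to 56, 29 to 91, 788 to 933 and 3 to 16 calls. With the replicate block the counts were 289, 53, 47, 78, 1032 and 9; the numbers do not pair the libraries. Leaving out 1 library moved the interval difference in class share from -0.236 to 0.441 percentage points, that in the ratio to promoter-to-distal counts from -0.00461 to 0.0155, and the background difference in the share of 100 kb or more from -0.108 to 1.34; none of these passed its test. Of 130 named pairs of loop and comparison, 52 were called under every setting run for them (10 to 13 each: scalings, DESeq2 where it gave an adjusted p, the block and left-out libraries) and 78 were lost under at least 1, with no change of sign. Loops of 250 kb or more were rarely deep enough to test, so a difference in the untested ones was not detectable at this depth.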

Other observations

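On chromosome 11, loops higher in D2-13B6 than in D2 ran from Sertad2 and Peli1 to Mgat5b. The Msi2 loop held 358 and 385 CPM in D2-13B6 and 216 to 257 CPM in the other 6 libraries, and the Pitpnc1 loop 263 and 236 CPM against 125 to 187. With a scaling factor per chromosome, the Msi2 difference between D2 and D2-13B6 went from -0.69 to -0.24 (FDR 0.655). A loop on the Y chromosome between Gm21860 and Gm47283, 1 of 2 tested there, held 188 and 177 CPM in D2 and 47.4 to 99.3 CPM in the other libraries (D2 over D2-13B6 0.92, SE 0.16, FDR 5.34e-06).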
